A study of Rattus norvegicus with 36 samples.

Results

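Transcript levels of 6 genes of thyroid hormone synthesis were followed in rats given iodine-131: Tg, Iyd, Duox1, Duox2, Duoxa1 and Duoxa2. They were taken as all probes whose RefSeq transcript carries one of these symbols, which gave 6 of 15154 genes with a symbol, each with 1 probe printed in 2 spots. The probes were A_64_P128458 for Tg, A_43_P21810 for Iyd, A_64_P086118 for Duox1, A_64_P119916 for Duox2, A_44_P356513 for Duoxa1 and A_64_P133167 for Duoxa2. The animals were 36 adult male Sprague Dawley rats, a wild-type outbred strain, in 9 groups of 4. Irradiated groups received the beta emitter 131I intravenously as iodide, at low activities (9, 88, 170 and 260 kBq) or at higher ones (340, 760, 1300 and 4700 kBq), and the controls were mock-treated (0 kBq). The thyroid was taken 24 h later and its RNA was hybridized to 1 one-color array per rat, so that no tissue was pooled. Injections went from the lowest to the highest activity with the controls last, so injection order and activity rank cannot be told apart among the irradiated groups.

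Thyroid hormone is made by follicular cells, which surround a lumen filled with colloid. Thyroglobulin (Tg) is the large secreted protein whose tyrosines are iodinated and coupled there. The dual oxidases Duox1 and Duox2 supply the hydrogen peroxide that this iodination needs, and Duox2 is known as the main thyroid form, whereas Duox1 is also known from other epithelia. Duoxa1 and Duoxa2 are maturation factors that bring their oxidase to the cell surface. Iodotyrosine deiodinase (Iyd) takes iodide back from the iodotyrosines left over when hormone is released.

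Each oxidase gene lies head to head with its maturation factor on rat chromosome 3. In the RefSeq annotation of GRCr8, 51 bases separate the annotated ends of Duox2 and Duoxa2, and 14 bases separate those of Duoxa1 and Duox1. The first interval is shown because both genes of that pair turn away from it and had closely similar levels across rats. A stretch upstream of Iyd is shown beside it because Iyd and Duoxa2 were low in the same rats. The intergenic bases are chr3:129698887-129698937 on the plus strand, running from Duox2 towards Duoxa2, and the Iyd bases are chr1:42410032-42410101 on the plus strand. Capitals mark TATAAA, the letters of the core promoter element that sets the transcription start in many genes.
Duox2 to Duoxa2: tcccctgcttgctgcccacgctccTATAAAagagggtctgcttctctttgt
Iyd upstream: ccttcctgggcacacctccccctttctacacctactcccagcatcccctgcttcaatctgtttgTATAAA
Of the 6 genes, 4 had an upstream window of 250 bases in the RefSeq table (Iyd, Duox1, Duox2 and Duoxa1). Searched on both strands, TATAAA occurred in the windows of Iyd and Duox2 and in 12.9% of all 33469 windows. The match in the Duox2 window is the one printed above. It reads TATAAA on the plus strand and ends 21 bases before Duoxa2, whereas Duox2 lies on the minus strand. CTCAAG, the core of the sequence that the thyroid factor Nkx2-1 is known to bind, occurred in none of the 4 windows and in 13.3% of all windows. These matches describe letters, not binding sites.

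Levels are log2 processed intensities minus the 75th percentile of the same array, so that 0 is the signal of a fairly bright probe. That percentile lay between 1564 and 4288 intensity units, from 60.0% to 88.4% of probes were well above background on an array, and no spot was marked as saturated. Tg, Duox1, Duox2 and Duoxa1 were well above background in all 36 rats. Iyd was not in 15 of the rats and Duoxa2 was not in 10 of them, and their values there lie within the background and have no order.

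The samples, all labelled as thyroid, differed widely in markers of follicular cells. The mean level of 19 other genes of follicular cells and the hormone pathway split the rats into 18 with a mean between 0.47 and 1.60 and 18 with a mean between -2.89 and -0.76, with no rat between. The 18 rats below the gap were 1 of the 4 controls (rat 3), 3 of 4 at 9 and 340 kBq, 2 of 4 at 88, 170, 260, 760 and 1300 kBq and 1 of 4 at 4700 kBq. In them the follicular factors Pax8 and Nkx2-1 were at most -0.98 and -1.17, against at least 1.79 and 1.70 in the other 18 rats. Both belong to the 19 genes whose mean made the split, so their separation is a description. Of the 19 genes, 10 did not overlap between the sets and the others did. In whole tissue, fewer follicular cells and less RNA per cell cannot be told apart. Each comparison is therefore given with and without these 18 rats, a split added after the values were seen.

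The genes did not follow activity as a graded series. Instead Tg, Iyd, Duox2 and Duoxa2 were high in all 18 rats with high follicular genes and mostly low in the rest, while Duox1 and Duoxa1 were low in only 7 rats. These 7 (rat 1 at 9 and 88 kBq, rat 3 at 170 kBq, rat 2 at 340 kBq, rats 1 and 2 at 1300 kBq and rat 3 at 4700 kBq) all had low follicular genes. The remaining 11 rats had low follicular genes but Duox1 and Duoxa1 in the range of the follicular-high rats or close to it. The 3 sets are descriptions drawn from the measured levels, so no test was made between them.

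**Figure D1:**
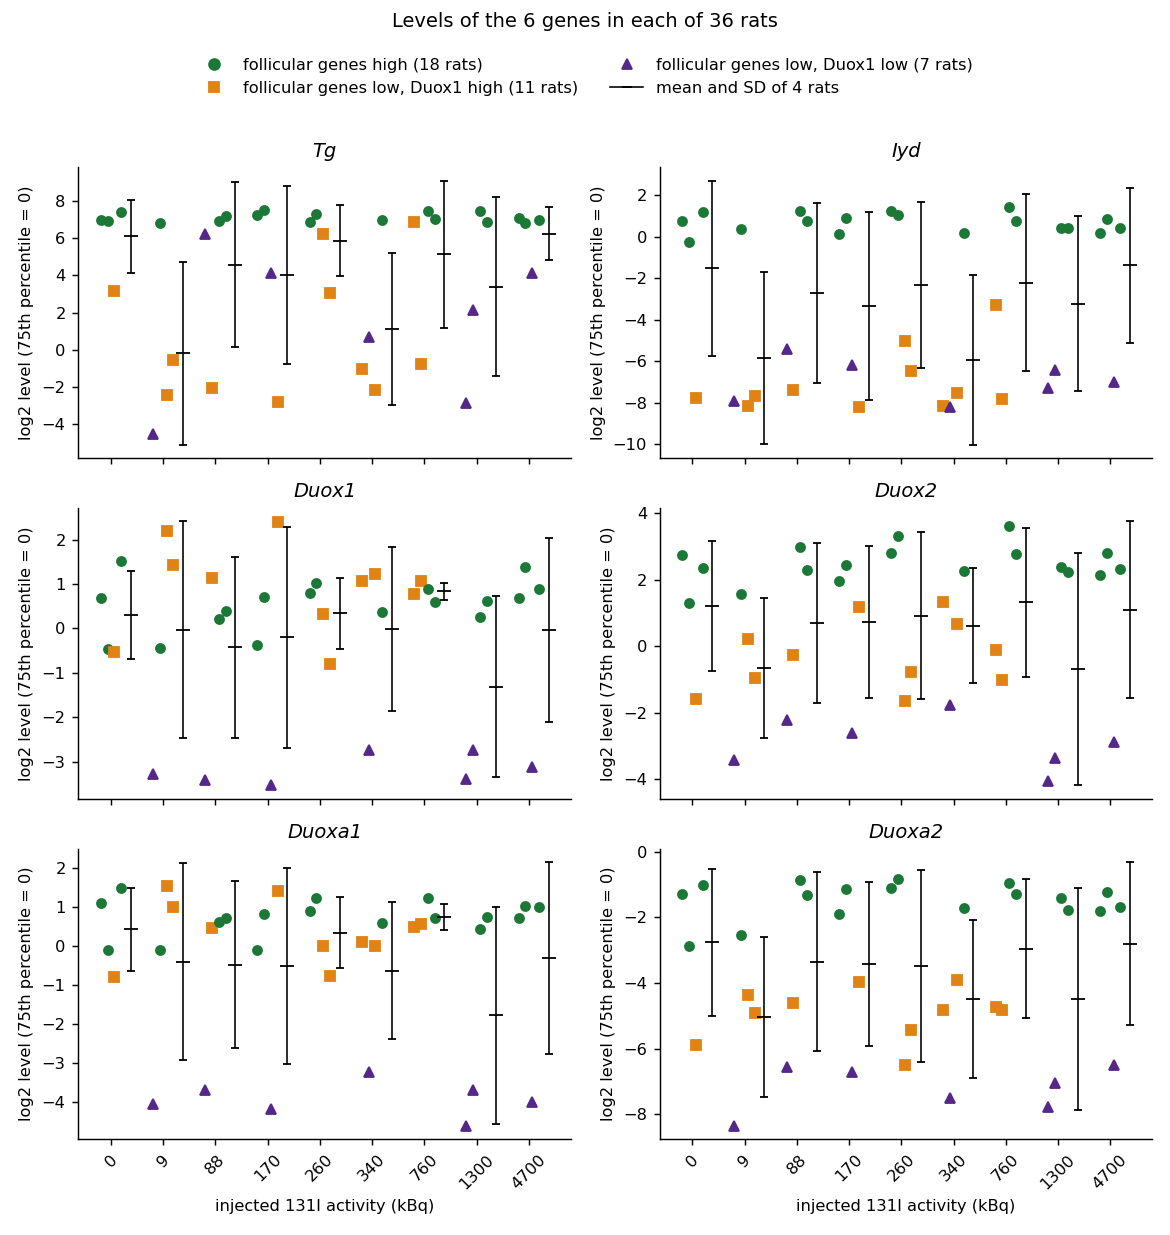
Level of each gene (y axis, log2 processed intensity with the 75th percentile of the array at 0) in each rat against injected 131I activity (x axis, kBq, 0 for controls), with the mean and SD of the 4 rats of a group in black. Circles are the 18 rats with high follicular genes, squares the 11 with low follicular genes and high Duox1, and triangles the 7 with low follicular genes and low Duox1, and every activity group holds both circles and other symbols.

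Tg, the hormone precursor, spanned -4.51 to 7.48. In the controls its levels were 6.96, 6.89, 3.18 and 7.37 in rats 1 to 4, a mean of 6.10 ± 1.96 (SD, n = 4). Rat 3, with low follicular genes, was the lowest control.
At 9 kBq the Tg levels were -4.51, 6.78, -2.43 and -0.55, a mean of -0.18 ± 4.91 (SD, n = 4). Only rat 2 overlapped the controls. At 340 kBq they were -1.0, 0.67, -2.16 and 6.98, a mean of 1.12 ± 4.08 (SD, n = 4), and again 3 rats lay below all controls and 1 among them.
At 1300 kBq Tg was -2.83, 2.13, 7.43 and 6.85, so 2 rats were low and 2 high. At 170 kBq it was 7.24, 7.48, 4.13 and -2.78, with 1 rat above and 1 rat below all controls. At 88 kBq it was 6.20, -2.03, 6.93 and 7.20, and at 760 kBq 6.83, -0.77, 7.43 and 7.03. Both groups held a single rat below all controls.
At 260 kBq Tg was 6.84, 7.26, 6.21 and 3.07, with 3 rats in the control range and 1 just below it. At the highest activity, 4700 kBq, it was 7.05, 6.80, 4.11 and 6.94, and all 4 rats lay within the control range.

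Ordered by mean, Tg was highest at 4700 kBq (6.22), followed by the controls, 260 kBq (5.85), 760 kBq (5.13), 88 kBq (4.57), 170 kBq (4.02), 1300 kBq (3.39), 340 kBq and 9 kBq. Every one of the 8 neighbouring differences in this order was below the SD of either group. The same held for the 8 neighbours of Iyd, Duox2, Duoxa1 and Duoxa2, and for 7 of 8 of Duox1.

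Iyd, the iodide-recycling enzyme, separated the rats more widely. Its widest gap, from -3.28 to -0.26, put 18 rats on each side, and the 18 low rats were those with low follicular genes. In the controls Iyd was 0.77, -0.26, -7.79 and 1.19, a mean of -1.52 ± 4.22 (SD, n = 4), with 3 of 4 rats well above background. At 9 kBq it was -7.93, 0.36, -8.18 and -7.69, and at 340 kBq -8.17, -8.21, -7.54 and 0.19. In each of these groups 1 of 4 rats was well above background, and that rat was within the control range. At 1300 kBq Iyd was -7.31, -6.43, 0.43 and 0.42 and at 170 kBq 0.14, 0.89, -6.19 and -8.20, with 2 of 4 rats well above background in both. At 88 kBq it was -5.39, -7.39, 1.23 and 0.76. At 260 kBq it was 1.22, 1.03, -5.05 and -6.46. At 760 kBq it was -3.28, -7.81, 1.45 and 0.75. These 3 groups had 2 high and 2 low rats, and 3 of 4 rats well above background. At 4700 kBq Iyd was 0.18, 0.86, -7.00 and 0.42, and 1 rat was low, as in the controls.

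Tg and Iyd disagreed in 3 rats. Tg had its widest gap between 4.13 and 6.20, with 15 rats below and 21 above, and all 15 rats low in Tg were low in Iyd (83.3% of the 18). The other 3 were rat 1 at 88 kBq with Tg at 6.20 and Iyd at -5.39, rat 3 at 260 kBq with 6.21 and -5.05, and rat 1 at 760 kBq with 6.83 and -3.28. Among the 18 rats with high follicular genes the lowest Tg was 6.78 and the lowest Iyd, in another rat, was -0.26. Tg thus came close to, or reached, the levels of those rats where Iyd did not.

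**Figure D2:**
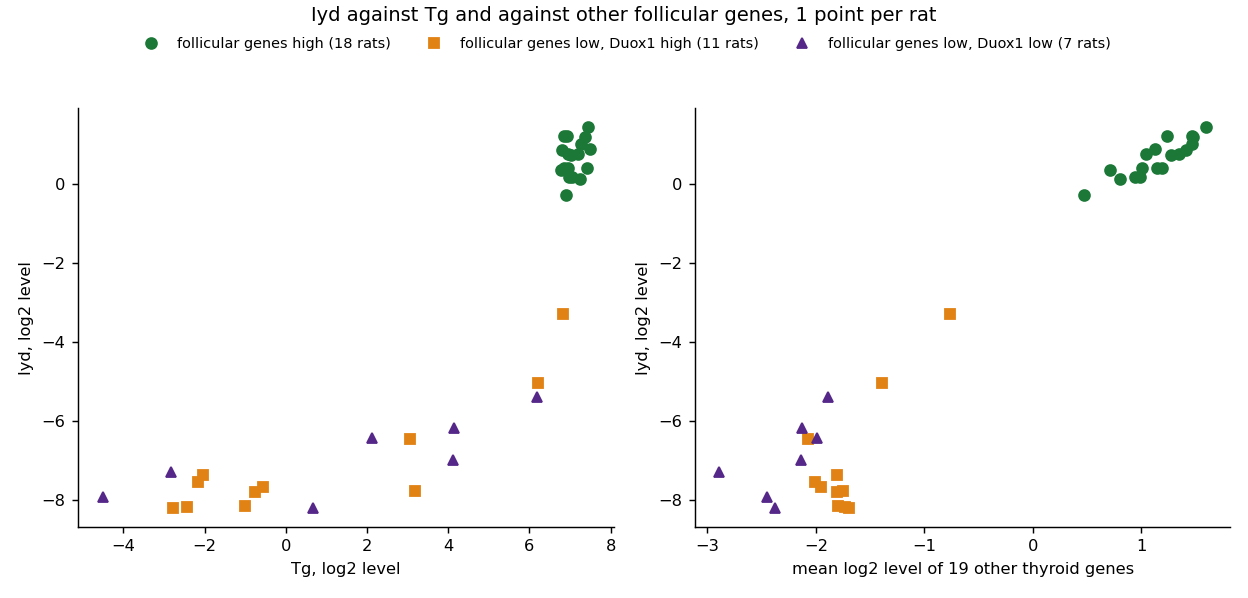
Iyd level (y axes, log2) of each of 36 rats against Tg level (left, log2) and against the mean log2 level of 19 other thyroid genes (right), with the 3 sets marked as circles, squares and triangles. The circles cluster at Tg of 6.78 or more and Iyd of -0.26 or more, and 3 rats reach a Tg of 6.20 to 6.83 with Iyd still at -5.39 to -3.28.

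In the 18 rats with high follicular genes Tg varied little, from 6.78 to 7.48 with a median of 7.01. Its lowest level there was in rat 2 at 9 kBq, whose array had the highest 75th percentile, 4288 intensity units. Rat 3 at 760 kBq, with the lowest percentile of the 18, 2361 units, had Tg at 7.43. How far this scaling sets the small differences in Tg between these rats was not tested. Iyd ranged from -0.26 to 1.45, Duox2 from 1.29 to 3.62 and Duoxa2 from -2.86 to -0.83. Duox1 ranged from -0.46 to 1.51 and Duoxa1 from -0.10 to 1.49. All 6 genes were well above background in all 18.

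In the 11 rats with low follicular genes and high Duox1, Tg ranged from -2.78 to 6.83 with a median of -0.77, and Iyd was well above background in 2 of them. Duox1 ranged from -0.79 to 2.39 with a median of 1.07, above the median of 0.65 in the follicular-high rats. Duoxa1 ranged from -0.78 to 1.56. Duox2, the thyroid oxidase, lay between -1.65 and 1.32 with a median of -0.26, against a median of 2.37 in the follicular-high rats, and Duoxa2 lay between -6.51 and -3.91 and was well above background in 8 of 11. The squamous epithelium markers Krt4 and Krt13, keratins of stratified lining, were at 5.07 to 7.15 and 5.19 to 6.99 in these rats. The 11 rats were set apart from the other rats with low follicular genes by Duox1 itself. Their high Duox1 therefore follows from that choice. Duoxa1 was high with it, while Duox2 and Duoxa2 were intermediate or low.

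In the 7 rats with low follicular genes and low Duox1, Tg ranged from -4.51 to 6.20. Duox1 lay between -3.53 and -2.73, Duoxa1 between -4.61 and -3.23 and Duox2 between -4.06 and -1.78. Duoxa2 was not well above background in any of the 7 and Iyd was in 1 of them. The same 7 rats formed the low side of the widest gap for Duox1 (-2.73 to -0.79) and for Duoxa1 (-3.23 to -0.78), and the same 18 rats formed it for Iyd and for Duoxa2 (-3.91 to -2.86). Duox2 had no such break, since its widest gap of 0.63 log2 units set apart 1 rat.

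Markers of other tissues moved with these sets, and their part in the levels was not tested. Linear levels were summed over the genes of each list, with the 75th percentile of an array as 1 unit. The 5 squamous epithelium genes summed to 107.8 to 420.8 in the 11 rats with high Duox1, to 0.25 to 1.5 in the 7 with low Duox1 and to 0.17 to 47.8 in the 18 follicular-high rats. No other list separated the 11 rats from the 7 without overlap. The 6 C cell genes, markers of the calcitonin cells of the thyroid, summed to 42.4 to 241.7 in the follicular-high rats, to 0.20 to 0.72 in the 11 and to 0.26 to 0.81 in the 7. The C cell genes therefore separated the same 18 rats as Iyd did. The 7 fast muscle genes summed to 0.81 to 906.9, 575.5 to 1238 and 1009 to 1767 in the 3 sets in the same order. Muscle RNA was thus present in every rat with low follicular genes and in most of the others.

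The 3 parathyroid genes summed to 2.07 to 139.4 in the follicular-high rats, 0.020 to 4.83 in the 11 and 0.027 to 4.51 in the 7. The 6 general epithelial genes summed to 34.3 to 83.7, 2.35 to 21.8 and 0.066 to 17.0. The epithelial list did not overlap between the follicular-high rats and the rest, while the parathyroid list did. The 6 cartilage genes summed to 0.082 to 1.53, 0.39 to 7.42 and 0.23 to 4.12, and the 5 airway epithelium genes to 0.082 to 3.96, 0.12 to 160.9 and 0.21 to 98.8. The 6 slow muscle genes summed to 0.41 to 212.8, 3.09 to 189.8 and 1.69 to 243.4. These ranges overlapped among all 3 sets. The 5 adipose genes summed to 5.16 to 56.2, 1.09 to 37.2 and 2.99 to 47.2, the 5 lymphoid genes to 0.062 to 55.3, 0.10 to 0.23 and 0.085 to 47.7, and the 4 erythroid genes to 32.1 to 59.4, 28.1 to 141.8 and 30.0 to 183.6, again with overlap.

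**Figure D3:**
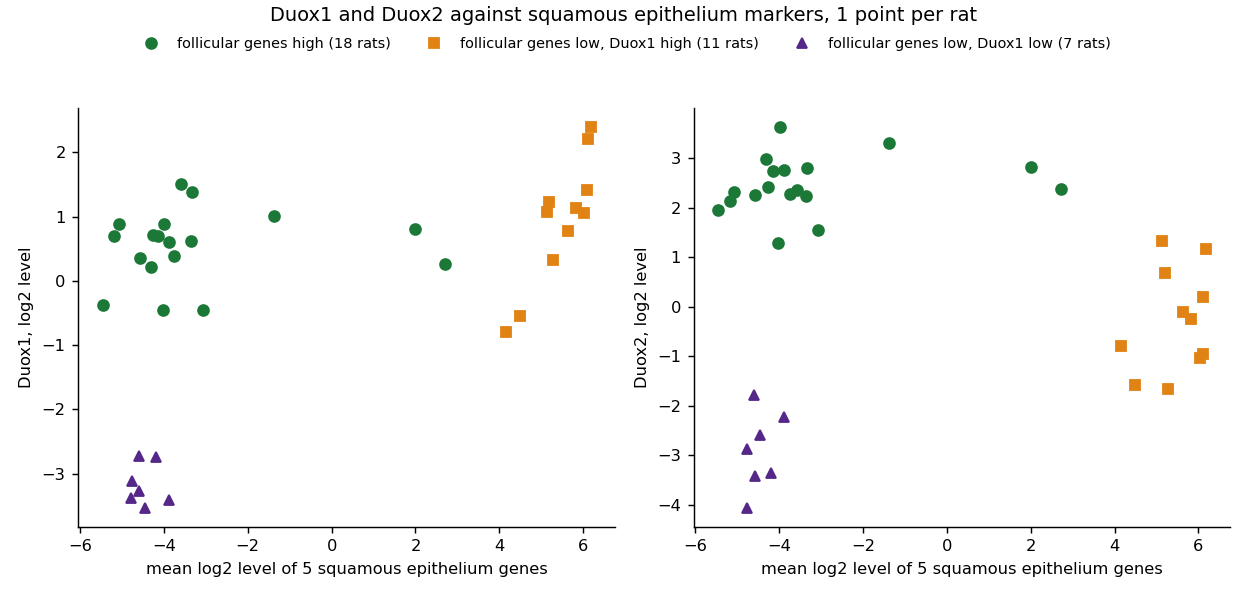
Duox1 (left) and Duox2 (right) levels of each of 36 rats (y axes, log2) against the mean log2 level of 5 squamous epithelium genes (x axes), with the 3 sets marked as circles, squares and triangles. The 11 squares have squamous means of 4.15 or more and Duox1 of -0.79 or more, while the 7 triangles have squamous means of -3.87 or less and Duox1 of -2.73 or less.

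Against controls, Tg and Iyd means were lower in 7 of 8 irradiated groups, but none of the differences passed the limits of the study's methods, an adjusted p under 0.01 with at least a 1.5-fold change. With limma fitted across all 36 arrays and Benjamini-Hochberg adjustment, 0 of the 6 genes were regulated at any activity, and 0% of the 30367 probes were, in each of the 8 comparisons. The Tg log2 ratio was -6.28 ± 2.59 (SE, n = 4 against 4) at 9 kBq, with an unadjusted limma p of 0.0218 and an adjusted p of 0.999, and 3 of 4 rats were below all controls. This was the only one of the 48 gene and activity combinations with an unadjusted limma p under 0.05. At that limit 0.454% of all probes were lower at 9 kBq, 0.372% at 88, 0.201% at 170, 0.336% at 260, 0.438% at 340, 0.148% at 760, 0.339% at 1300 and 0.372% at 4700 kBq. More were higher, 2.77% at 9 kBq, 2.99% at 88, 2.16% at 170, 0.787% at 260, 13.2% at 340, 1.5% at 760, 3.84% at 1300 and 1.28% at 4700 kBq, and none of the 6 genes was among them. At 340 kBq the Tg log2 ratio was -4.98 ± 2.59 (SE), with an adjusted limma p of 0.406. The remaining Tg log2 ratios were -1.53 at 88 kBq, -2.08 at 170 kBq, -0.25 at 260 kBq, -0.97 at 760 kBq, -2.71 at 1300 kBq and 0.12 at 4700 kBq, all with the same SE. No member had all 4 rats of an irradiated group below, or all above, the 4 controls. Of all probes, 0.247% lay wholly below at 9 kBq, 0.194% at 88, 0.244% at 170, 0.244% at 260, 0.304% at 340, 0.247% at 760, 0.188% at 1300 and 0.553% at 4700 kBq. Wholly above lay 1.48% at 9 kBq, 1.67% at 88, 1.0% at 170, 0.823% at 260, 4.04% at 340, 1.38% at 760, 1.07% at 1300 and 0.715% at 4700 kBq.

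With array weights, a limma setting that gives arrays far from their group less influence, Tg and Iyd passed the limits at 9 kBq, with log2 ratios of -7.73 and -7.52 and adjusted limma p of 0.00504 and 0.00754. The rat at 9 kBq with high follicular genes then had a weight of 0.284 and control rat 3 a weight of 0.410, the lowest of their groups. In that setting 7.75% of all probes were called at 9 kBq, 0.122% at 88, 0.0198% at 170, 0% at 260, 0.0231% at 340, 0.00988% at 760, 0.00659% at 1300 and 0.0856% at 4700 kBq, and no member was called above 9 kBq.

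The median of all probes itself stood 0.12 above the controls at 170 kBq, 0.31 at 340 kBq and 0.22 at 1300 kBq on the log2 scale. Relative to it, the Tg ratios there were -2.20, -5.28 and -2.92.

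Iyd gave log2 ratios of -4.34 at 9 kBq and -4.41 at 340 kBq, both ± 2.84 (SE), with adjusted limma p of 0.999 and 0.510. Elsewhere its log2 ratios were -1.18 at 88 kBq, -1.82 at 170 kBq, -0.80 at 260 kBq, -0.70 at 760 kBq, -1.70 at 1300 kBq and 0.14 at 4700 kBq. Rats with low follicular genes made up 3 of 4 at 9 and 340 kBq, where the ratios were lowest, and 1 of 4 at 4700 kBq and in the controls.

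The oxidases and their maturation factors had their lowest means at 1300 kBq for Duox1, Duox2 and Duoxa1 and at 9 kBq for Duoxa2. At 1300 kBq the log2 ratios were -1.61 ± 1.24 (SE) for Duox1, -1.90 ± 1.64 for Duox2, -2.21 ± 1.37 for Duoxa1 and -1.74 ± 1.77 for Duoxa2. In that group Duox1 was -3.39, -2.74, 0.27 and 0.62 and Duoxa1 was -4.61, -3.69, 0.45 and 0.76. Rats 1 and 2 were both of the set with low follicular genes and low Duox1, which was drawn by Duox1 itself. At 9 kBq the log2 ratios were -0.33 for Duox1, -1.85 for Duox2, -0.83 for Duoxa1 and -2.29 for Duoxa2, and at 340 kBq -0.32, -0.58, -1.06 and -1.73 in the same order. The adjusted limma p of these 12 ratios lay between 0.620 and 0.999.

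Exact two-sided permutation tests of each gene at each activity, 4 rats against 4, gave their lowest p of 0.0571 for Tg at 9 kBq. The smallest p that this design allows is 0.0286, and after Benjamini-Hochberg adjustment over the 48 tests the exact p values were all 0.992 or higher. The limma F test for any difference among the 9 groups gave adjusted p of 0.989 for each of the 6 genes and unadjusted p from 0.198 for Tg to 0.903 for Duox2, so 0 of 6 passed an unadjusted limit of 0.05 that 2.69% of all probes passed, or the adjusted limit that 0.0165% passed.

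Arrays were scanned on 2 days, and both days held all 3 sets, with 10 and 8 follicular-high rats, 3 and 8 of the 11 and 3 and 4 of the 7. Within the days the Tg difference at 9 kBq was -3.64 on the first (2 rats against 3 controls) and -9.49 on the second (2 rats against 1 control). At 340 kBq it was -5.14 (1 rat against 3) and -5.69 (3 rats against 1). For Iyd the differences at 9 kBq were -1.62 and -8.58, and at 340 kBq -5.92 and -5.95. At 260 and 760 kBq the first-day differences were positive, 1.03 and 1.62 for Tg and 3.50 and 3.73 for Iyd, each 1 rat against 3, while those of the second day were negative, -1.45 and -2.60 for Tg and -4.27 and -4.22 for Iyd, each 3 rats against 1. The sign thus depended on the day in these 2 groups, and for Iyd also at 1300 kBq, with 0.13 and -7.21. Duox1 at 9 kBq gave 0.71 and -1.62, Duox2 0.19 and -4.93 and Duoxa1 0.52 and -2.63, again of opposite sign. The control with low follicular genes was scanned on the first day, and the control of the second day had high follicular genes.

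When only the 18 rats with high follicular genes were kept, the Tg differences lay between -0.30 and 0.29. All 15 rats with low Tg were among those left out, so smaller differences and a smaller spread follow from the choice of rats, and the values only describe the rats kept. This left 3 controls and 1 to 3 rats per irradiated group, and a lone rat at 9 and at 340 kBq was assumed to vary like the others. At 9 kBq the Tg log2 ratio was -0.30, with a 95% interval from -0.99 to 0.39, where all rats gave an interval from -11.58 to -0.98. At 340 kBq it was -0.09, with an interval from -0.78 to 0.60. The residual SD of Tg in the limma fit was 3.67 with all rats and 0.27 with the 18. None of the 6 genes was regulated in any comparison among these rats, against 0.0362% of probes called at 9 kBq, 0% at 88, 0.00329% at 170, 0% at 260, 12.2% at 340, 0.0165% at 760, 0.0132% at 1300 and 0.0296% at 4700 kBq. The irradiated side at 9 and at 340 kBq was 1 rat. At 340 kBq this was rat 4, whose array had the highest share of probes well above background, 88.4%. Its array weight among all rats was the lowest of the 36, 0.264. Such a weight compares an array with its group, where rat 4 was alone in having high follicular genes. The weights were not used in the fit of the rats kept. The values and shares of probes at 340 kBq among the rats kept rest on the array of rat 4. That Tg did not pass the test in these few rats does not show that it was equal.

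**Figure D4:**
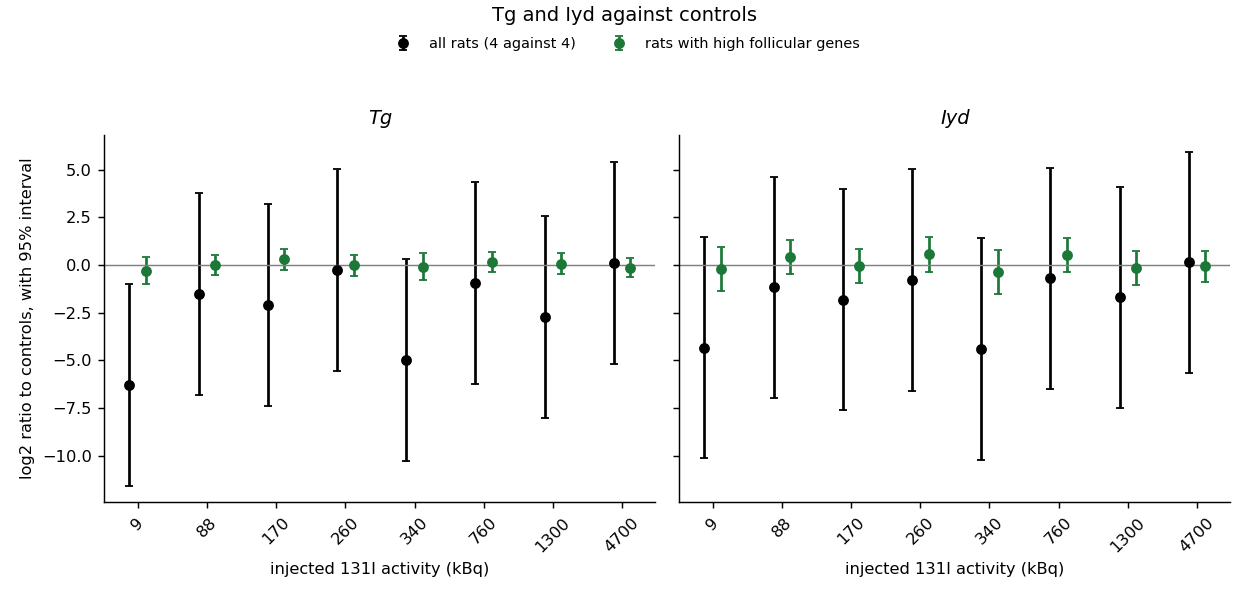
Log2 ratio to controls (y axis, point with its unadjusted 95% interval from limma) of Tg (left) and Iyd (right) at each injected 131I activity (x axis, kBq), for all rats in black and for the rats with high follicular genes in green. The black Tg intervals are wide, and at 9 kBq the interval reaches from -11.58 to -0.98, while the green Tg points lie between -0.30 and 0.29.

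Among the same 18 rats Iyd gave log2 ratios from -0.38 to 0.55, and Duox1 and Duoxa1 had their lowest value at 9 kBq, -1.03 and -0.94, in 1 rat. The only unadjusted limma p under 0.05 was that of Duox2 at 760 kBq, a log2 ratio of 1.06 ± 0.43 (SE, 2 rats against 3) with p of 0.0306 and an adjusted p of 0.648. At that limit 4.38% of probes were lower at 9 kBq, 0.678% at 88, 1.07% at 170, 0.958% at 260, 0.356% at 340, 0.692% at 760, 1.0% at 1300 and 1.74% at 4700 kBq among these rats. Higher were 11.2% at 9 kBq, 9.06% at 88, 2.89% at 170, 3.1% at 260, 24.5% at 340, 6.11% at 760, 3.44% at 1300 and 5.62% at 4700 kBq. With all rats the Duox2 ratio at 760 kBq was 0.11.

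Group means of the 6 genes showed no relation with the rank of activity that passed a test. Over the 9 groups Spearman's rho was 0.17 for Tg (exact permutation p = 0.678), 0.20 for Iyd (exact p = 0.613), -0.12 for Duox1 (exact p = 0.776), 0.02 for Duox2, -0.18 for Duoxa1 and -0.02 for Duoxa2. Pearson's r lay between -0.29 and 0.20, with exact p from 0.451 to 0.927, and the adjusted exact p was 0.982 for each rho and 0.927 for each r. Without the 2 groups at the ends of the range, r was 0.32 for Tg (exact permutation p = 0.477).

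Agreement between the genes was tested among the rats with high Tg and then within each of the 3 sets. The share of all pairs of probes that would pass the same limit was not measured. The counts of pairs below therefore have no background beside them. The 21 rats with Tg above its widest gap hold the 18 follicular-high rats and 3 rats of the other sets, so their correlations mix sets. Among them all 15 pairs correlated at an adjusted permutation p under 0.05, with Pearson's r from 0.535 to 0.988. For Tg and Iyd r was 0.772 (permutation p = 0.00019) and Spearman's rho 0.497 (p = 0.0235), and without the 2 rats farthest from the median of Tg r was 0.347, so this relation rests on those rats. Likewise Iyd with Duox1 went from r of 0.610 to 0.192 without 2 rats.

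Among the 18 rats with high follicular genes, 10 of 15 pairs passed, all of them pairs without Tg. Duox1 with Duoxa1 gave r of 0.952 and rho of 0.950, and Duox2 with Duoxa2 gave r of 0.890 and rho of 0.928. Each oxidase thus moved with the factor that lies next to it in the genome. This was not particular to neighbours, since Duoxa2 moved about as closely with Iyd, which lies on another chromosome. Iyd with Duoxa2 gave r of 0.880 and rho of 0.957, and Iyd with Duox2 r of 0.842 and rho of 0.895. These 4 pairs had a permutation p of 1e-05, the smallest that 100000 permutations can give, and stayed at r of 0.723 or more without the 2 rats farthest from the median. Without 2 rats Duox1 with Duox2 went from r of 0.644 to 0.379 and Duox1 with Duoxa2 from 0.727 to 0.466, so these relations rest in part on those rats, and the other 4 pairs had r of 0.534 or more. The 5 pairs with Tg had r from 0.202 to 0.437 and adjusted permutation p from 0.0943 to 0.422. All levels on an array share its 75th percentile.

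Within the first scan day (10 rats) the same 10 pairs passed. Within the second (8 rats) 3 pairs did by the exact permutation test, Iyd with Duoxa2 (r = 0.971, adjusted exact p = 0.00391), Duox2 with Duoxa2 (r = 0.920) and Iyd with Duox2 (r = 0.839), and Duox1 with Duoxa1 had r of 0.768 with an adjusted exact p of 0.0967.

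**Figure D5:**
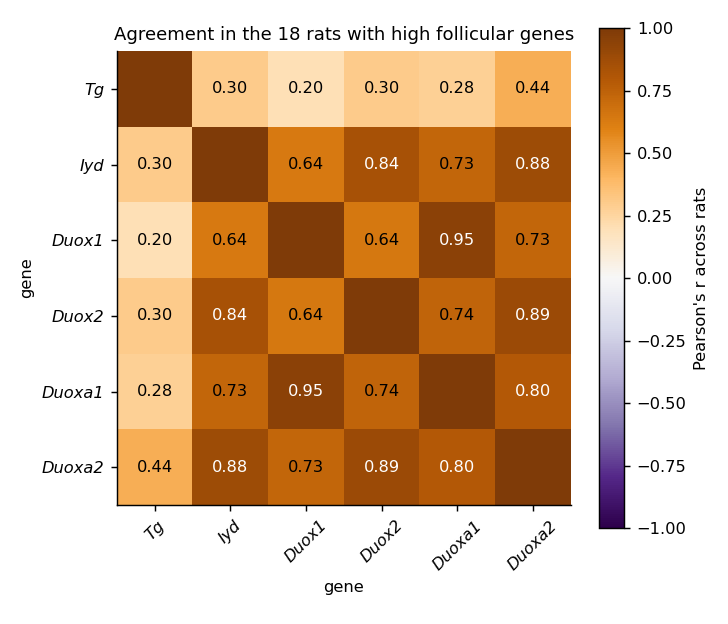
Pearson's r between the levels of each pair of the 6 genes across the 18 rats with high follicular genes, printed in each cell and colored from -1 to 1. The Tg row and column hold the lowest values, 0.20 to 0.44, and Duox1 with Duoxa1 the highest, 0.95.

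The mean of the 19 other follicular and pathway genes tracked 5 of the 6 genes within these 18 rats. Pearson's r with it was 0.915 for Duox2, 0.912 for Duoxa2, 0.887 for Iyd, 0.877 for Duoxa1 and 0.808 for Duox1, with adjusted permutation p of 0.000144 or lower over the 6 genes. For Tg r was 0.240 (permutation p = 0.336), and -0.01 without the 2 rats farthest from the median. Whether Tg differed in this from the others was not tested.

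In the 11 rats with low follicular genes and high Duox1, 5 of 15 pairs passed. Duox1 with Duoxa1 had r of 0.939 and Duox2 with Duoxa2 r of 0.798, at adjusted permutation p of 0.0015 and 0.0121. Duox1 with Duoxa2 had r of 0.744 (adjusted permutation p = 0.0305). Tg correlated with Iyd (r = 0.864, adjusted permutation p = 0.00772), although Iyd was not well above background in 9 of these 11 rats, and r was 0.581 without 2 rats. Tg ran opposite to Duoxa2 (r = -0.735, adjusted permutation p = 0.0305). Duoxa2 was well above background in only 8 of these 11 rats. Its correlations here, with Tg and with the oxidases, thus rest in part on background values that have no order. Tg with Duox1 missed the limit by r (-0.678, adjusted permutation p = 0.059) and passed it by rho (-0.818, adjusted permutation p = 0.0282). In the 7 rats with low Duox1, 1 of 15 pairs passed, and most of the Iyd and Duoxa2 values there are background.

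Of the other genes of the pathway, 19 of 20 listed had a probe, and 0 of 19 were regulated at any activity. Their median log2 ratio was -0.89 at 9 kBq, -0.46 at 88 kBq, -0.53 at 170 kBq, -0.39 at 260 kBq, -1.05 at 340 kBq, -0.17 at 760 kBq, -1.16 at 1300 kBq and -0.01 at 4700 kBq, beside medians of all probes from 0.03 to 0.31. None was lower at an unadjusted limma p under 0.05, and 1 was higher at that limit, Slc26a4, with log2 ratios of 0.76 at 340 kBq and 0.72 at 1300 kBq, whose probe was not well above background in any rat. Between the 18 rats above the gap in their mean and the 18 below it, 10 of the 19 did not overlap, which is a description, since their own mean made the split. These were the transcription factors Pax8, Nkx2-1, Foxe1 and Hhex, the thyrotropin receptor Tshr, the anion transporter Slc26a7, the deiodinase Dio1, the adhesion protein Cdh16, the endocytic receptor Lrp2 and the peptidase Cpq.

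Pax8 had the lowest log2 ratios of the list at 9 kBq (-4.87) and 340 kBq (-5.30), and Nkx2-1 had -4.60 and -4.13. Slc26a7 was well above background in 1 of the 18 low rats and in all 18 high rats. Foxe1 differed less, with levels from -1.39 to 1.16 in the low rats and from 1.79 to 3.67 in the high rats. The channel genes Ano1, Kcne2 and Kcnq1 and the lysosomal proteases Ctsb, Ctsd, Ctsk and Ctsl overlapped between the 2 sets. Ctsd, for example, ranged from 3.54 to 4.71 in the high rats and from 4.43 to 5.79 in the low rats.

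Outside the members, the 6 genes with a pattern most like that of Tg, by Pearson's r over the 36 rats and with 1 probe per gene, were Klhl14 (0.887), Nkx2-1 (0.882), Pax8 (0.881), Folr1 (0.869), Ppp1r1b (0.862) and Egfl6 (0.861). Among 30267 probes, Iyd ranked 9 in likeness to Tg with r of 0.873, but Tg ranked only 1039 in likeness to Iyd. Duoxa2 ranked 3 in likeness to Duox2 with r of 0.971, and Duoxa1 ranked 12 in likeness to Duox1 with r of 0.967. In the other direction Duox2 ranked 10 in likeness to Duoxa2 and Duox1 ranked 33 in likeness to Duoxa1. By contrast Tg and Duox1, both of the same pathway, had r of 0.127 over the 36 rats. These values describe 36 rats that fall into separate sets.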

How the data were processed

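Deposited scanner files of 36 one-color Agilent arrays (rat 8x60K design on the rn4 build, Feature Extraction 10.7.3.1 per the file headers) held processed intensity per spot, background-subtracted by the authors' scanner software. Spots marked as non-uniform or as population outliers were left out. The 2 spots of a probe were averaged and log2 intensity minus the 75th percentile of the array was taken for 30367 probes. The authors' matrix of deposited intensity values, linear and quantile normalized across the 36 arrays as its equal distributions show, served as an alternative. The files hold no mean signal, so normexp (offset 50) used the median signal. One limma 3.58.1 fit (R 4.3.3) over all arrays compared each activity with controls, with Benjamini-Hochberg adjustment per comparison and the limits of the study's methods (adjusted p of 0.01, fold change of 1.5). It was tested on simulated data. Exact and 100000-draw permutation tests were run in Python 3.11.15 with numpy 2.4.6. Groups came from the sample titles, and no 2 arrays had r above 0.991. Alternatives were other scalings and background correction, a filter on dim probes, slide, scan day and rat number as blocks, array weights and leaving out each rat. The number of arrays limits the precision.

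The members and lists were chosen with earlier results of these data known. Named genes were all members, all genes of the follicular list and the 6 most like Tg by r. Lists covered follicular cells, C cells, parathyroid, cartilage, fast and slow muscle, fat, squamous, airway and general epithelium, lymphoid and erythroid cells. Some genes of the hormone pathway are not reported here. Splits by the follicular list were chosen after seeing the data.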

Additional observations from a re-analysis of the deposited data

Results flagged for a closer look

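In 14 of 54 sets of 4 rats (6 genes in 9 groups) 1 rat stood apart from the other 3 by more than Dixon's limit for 4 values, where chance gives about 2.7.

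Rat 3 at 4700 kBq was low in all 6 genes: Tg at 4.11 with the next rat at 6.80, Iyd at -7.00, Duox1 at -3.11, Duox2 at -2.88, Duoxa1 at -3.99 and Duoxa2 at -6.51. Control rat 3 was low in Tg (3.18) and Iyd (-7.79). Tg was low in rat 2 at 88 kBq (-2.03) and in rat 2 at 760 kBq (-0.77). Iyd was high in rat 2 at 9 kBq (0.36) and in rat 4 at 340 kBq (0.19), the single rats of those groups with high follicular genes. Duoxa1 was low in rat 1 at 88 kBq (-3.68) and in rat 2 at 340 kBq (-3.23), both of the 7 rats with low follicular genes and low Duox1.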

How the results depend on the processing

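Apart from leaving out rats, 12 alternative settings gave 328 values for 28 log2 ratios, of which 307 kept their direction and their side of the limits. The filter on dim probes removed Iyd, which has no value there. Array weights brought Tg and Iyd at 9 kBq past the limits, with log2 ratios of -7.73 and -7.52 and adjusted p from limma of 0.00504 and 0.00754, which made 2 regulated member probes where 7.75% of all probes were then called. They also turned Duox1 at 9 kBq to 0.61. The cause was not tested. Over all 12 settings the adjusted p of Tg at 9 kBq ranged from 0.00504 to 0.9999. Slide as a block turned Tg to 0.22 at 88 kBq and 0.65 at 260 kBq, Iyd to 0.52 at 88, 0.48 at 260 and 0.052 at 760 kBq, and Duox1 to 0.074 at 9 kBq, and scan day as a block turned Tg to 0.24 at 260 kBq. With only the rats high in follicular genes, Tg turned to 0.29 at 170, 0.16 at 760, 0.064 at 1300 and -0.14 at 4700 kBq, Iyd to 0.43 at 88, 0.55 at 260, 0.53 at 760 and -0.080 at 4700 kBq, Duox2 to 0.12 at 340 and 0.18 at 1300 kBq and Duoxa2 to 0.13 at 1300 kBq.

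Leaving out 1 rat at a time left 0 regulated member probes. Tg then ranged from -8.60 to -4.84 at 9 kBq (the first without rat 2, the only rat there with high follicular genes), from -2.50 to 0.68 at 88, -3.23 to 0.19 at 170, -1.23 to 0.67 at 260, -1.94 to 1.0 at 760 and -0.85 to 0.83 at 4700 kBq, from -6.93 (without rat 4) to -3.88 at 340 kBq and from -4.05 (without rat 3) to -0.63 (without rat 1) at 1300 kBq. Iyd ranged from -6.43 (without control rat 3) to -3.44 at 9 kBq, from -6.50 (without control rat 3) to -3.51 at 340 kBq, from -3.91 (without control rat 3) to -0.20 (without rat 4) at 170 kBq and from -3.79 (without control rat 3) to -0.34 (without rat 1) at 1300 kBq, and from -3.27 to 0.39 at 88, -2.89 to 0.59 at 260, -2.79 to 1.16 at 760 and -1.95 to 2.01 at 4700 kBq. Duox1 ranged from -1.07 to 0.76 at 9 and -0.73 to 0.58 at 340 kBq, Duox2 from -1.51 to 0.22 at 340 kBq and Duoxa1 from -1.48 to 0.39 at 9 kBq.

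The rat numbers did not pair the samples. Deviations of same-numbered rats of different groups had a median r of -0.03 (144 pairs, 57 of them over 0.1). The replicate block left 0 member probes regulated and the Tg ratio at 9 kBq at -6.28, and it changed no call. Without the controls, Spearman's rank correlation with activity became 0.48 for Tg, 0.52 for Iyd, 0.31 for Duox2, 0.024 for Duox1 and Duoxa1 and 0.40 for Duoxa2, with adjusted exact permutation p from 0.654 to 0.977, and after quantile normalization it was 0 for Duoxa2. The number of correlated pairs was 15 in the rats high in Tg, 10 in those high in follicular genes, 5 and 1 in the other sets and 3 on the second scan day. Each gene has 1 probe, so a mean over probes could give no other value.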
